A study of Mus musculus with 48 samples.

Results

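The Eph, ephrin, semaphorin, plexin, neuropilin, Slit and Robo genes were examined in 48 single mouse cells. Members were the table rows whose symbols name an Eph receptor, an ephrin, a semaphorin, a plexin, a neuropilin, a Slit or a Robo, which gave 60 genes of 23284 gene symbols. Of these, 31 encode ligands and 29 encode receptors or co-receptors. The cells came from embryonic stem cells of strain 129P2/OlaHsd that carried an inducible Mesp1, a basic helix-loop-helix factor of nascent mesoderm, and that were differentiated as embryoid bodies, floating clumps in which germ layers form. Doxycycline at 500 ng/ml was given between days 2.25 and 3.25, and cells that excluded the dead-cell dye propidium iodide were sorted at day 4 and captured one by one on a Fluidigm C1 device. All 48 cells received this treatment and stand in 1 group with no separate cultures named, so the group counted as 1 sample. No uninduced cells were analysed here, no comparison between conditions was possible, and no p-value was made from cells.

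Guidance genes were first described for growing axons, and they also steer cell sorting, migration and vessel growth in the early embryo. Ephrins are cell-surface ligands, tethered by a lipid anchor in the A class and by a transmembrane segment in the B class, and they bind Eph receptor tyrosine kinases on neighbouring cells, usually with repulsion between the cells. Semaphorins signal through plexins, and most secreted class 3 semaphorins need a neuropilin as the binding partner. Slits are secreted and bind Robo receptors. In the early embryo Eph signals help to form boundaries between mesoderm segments, and neuropilin 1 is also a co-receptor for the endothelial growth factor VEGF-A beside Kdr.

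A gene was called detected in a cell at 1 FPKM or more, a level scaled by transcript length and by the fragments mapped in that cell. Of the 60 genes, 21 passed this level in 12 or more cells (25%), 31 in 1 to 11 cells, and 8 in none. The share in at least 25% of cells was 35% of the guidance genes, close to the 35.8% of all gene symbols. This likeness held at the 25% mark and not throughout. The median number of cells was 6 for a guidance gene, against 3 over all symbols. The 8 genes in none were Epha5, Epha6, Epha8, Plxnb3, Robo4, Sema3c, Sema3g and Sema6c, or 13.3% of the set, against 39.7% of all symbols. A median of 13 guidance genes was detected per cell, with a range from 5 to 20. Their summed level was 58.7 FPKM in the lowest cell, 147 FPKM in the median and 425 FPKM in the highest. Ligands and receptors were about equally represented, with 11 of 31 and 10 of 29 genes in at least 25% of cells. Levels were modest: among the 21 genes the median of the mean level was 3.67 FPKM, against 11.2 FPKM over all genes in 12 or more cells. These genes were not matched to the 21 for number of cells. Of the 21, 3 exceeded 11.2 FPKM, Efna4, Efna5 and Nrp1.

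**Figure D1:**
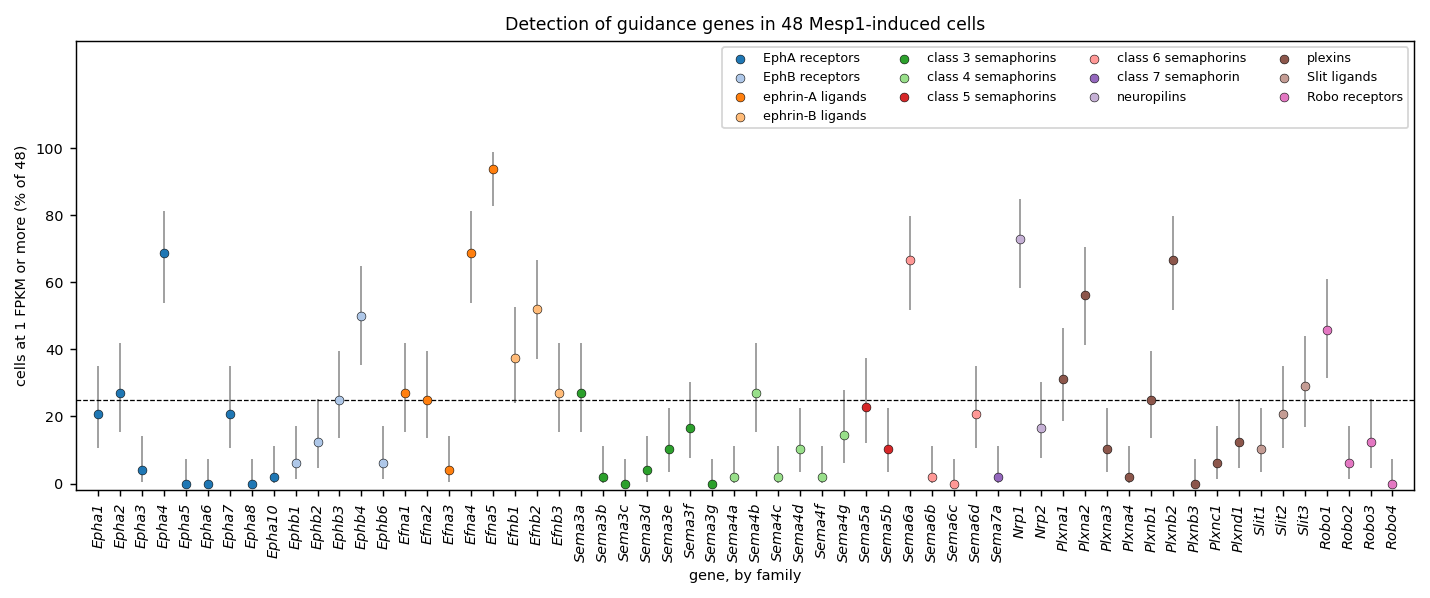
Percent of the 48 cells with 1 FPKM or more (y axis) for each of the 60 guidance genes (x axis, coloured by family), with exact 95% intervals as bars and a dashed line at 25%. Efna5 stands highest at 93.8%, and Epha4, Ephb4, Nrp1 and Robo1 each stand above the other genes of their families.

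The number of genes detected per cell was 6212 in the median and ranged from 4788 to 7010. It was lower at higher capture sites (the number in a cell's title, which the labels do not explain, was taken as its site), with Spearman's rho = -0.82 and Pearson's r = -0.82. The median was 6506 genes in the 25 cells at sites up to 48 and 5711 genes in the 23 cells at higher sites. The number of guidance genes was 13 and 12 in the same parts, and its correlation with the number of all detected genes was rho = 0.29 (r = 0.39, 48 cells). Exact Clopper-Pearson 95% intervals are given for shares of cells and cover counting error only. For a gene in 0 of 48 cells the exact interval reaches 7.40% of cells, and the simpler limit of 3 cells in 48 is 6.25%. The label of the cells was checked against marker genes: 6 of 6 nascent mesoderm and 5 of 5 cardiac and lateral plate genes were in at least 25% of cells. So were 4 of 4 genes of pluripotent cells, with Nanog in 46 cells and Pou5f1 in 26, and 3 of 3 epithelial genes, with Krt18 in 28 cells and Cdh1 in 18. Of 3 endoderm genes 1 was, Foxa2 in 12 cells. The pluripotent list summed to between 1.01 and 522 FPKM, the epithelial list to between 0 and 685 FPKM and the endoderm list to between 0 and 119.6 FPKM per cell; the part of such cells in the guidance gene values was not tested beyond the marker relations given later. Of 4 genes of formed endothelium, Cdh5, Pecam1 and Tie1 were in no cell and Tek was in 2, and the summed level of the 4 ran from 0 to 22.3 FPKM. Of 8 neuronal and neural progenitor genes, 1 was in at least 25% of cells, Stmn2 in 40 cells with a median of 17.7 FPKM, while Dcx and Elavl3 were in none and the list summed to between 0 and 222 FPKM. None of 4 blood genes was detected, and the 3 neural crest genes were in at most 3 cells each.

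The stretches just upstream of the RefSeq starts of 4 genes are shown because these genes carry most of what follows: Efna5 was detected in more cells than any other guidance gene, Epha4 is the prevalent EphA receptor, Robo1 had the highest correlation with Mesp1, and Nrp1 had the highest correlation with Kdr. Capitals mark E-boxes (CANNTG, the same on both strands), the core motif of basic helix-loop-helix factors such as Mesp1. Each is 250 bases, 5′ to 3′ on the strand of the gene, from RefSeq on GRCm38.p6. None overlaps an exon of its own gene in GENCODE M21, though those of Robo1 and Nrp1 lie inside the longer gene spans given there, and the far end of the Epha4 stretch runs into a noncoding RNA gene on the other strand, Gm28386.
Efna5, chr17:62881318-62881567, minus strand: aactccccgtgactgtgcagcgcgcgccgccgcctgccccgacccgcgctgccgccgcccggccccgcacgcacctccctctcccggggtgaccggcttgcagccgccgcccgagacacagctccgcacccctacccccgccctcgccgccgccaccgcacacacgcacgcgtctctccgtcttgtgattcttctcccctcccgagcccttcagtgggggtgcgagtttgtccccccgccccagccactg
Epha4, chr1:77515089-77515338, minus strand: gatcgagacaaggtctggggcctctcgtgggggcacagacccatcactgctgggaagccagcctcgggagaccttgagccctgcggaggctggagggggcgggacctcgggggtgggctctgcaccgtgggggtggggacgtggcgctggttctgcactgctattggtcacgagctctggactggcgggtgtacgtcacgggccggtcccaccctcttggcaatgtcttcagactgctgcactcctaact
Robo1, chr16:72662899-72663148, plus strand: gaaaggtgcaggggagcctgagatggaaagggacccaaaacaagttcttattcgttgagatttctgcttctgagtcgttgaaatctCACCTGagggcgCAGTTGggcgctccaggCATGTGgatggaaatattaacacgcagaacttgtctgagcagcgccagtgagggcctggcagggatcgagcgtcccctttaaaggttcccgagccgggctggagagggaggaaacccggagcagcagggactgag
Nrp1, chr8:128358823-128359072, plus strand: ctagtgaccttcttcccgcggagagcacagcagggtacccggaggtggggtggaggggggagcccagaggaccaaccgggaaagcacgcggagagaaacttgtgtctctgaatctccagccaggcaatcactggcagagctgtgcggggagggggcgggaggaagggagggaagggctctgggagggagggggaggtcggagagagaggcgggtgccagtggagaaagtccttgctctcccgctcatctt
The Robo1 stretch held 3 E-boxes, and those of Efna5, Epha4 and Nrp1 held 0. Over all 32851 such stretches, 66.2% held at least 1 E-box and 12.2% held 3 or more. Of the 21 stretches listed for 18 of the widely detected guidance genes, 7 held an E-box. The deposited values are per gene and do not tell starts apart. A match of letters is a description and not a binding site.

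Among the ephrin-A ligands, Efna5 (chromosome 17, 62604184 to 62881317, minus strand), the gene of ephrin-A5, was the most widely detected guidance gene. It reached 1 FPKM in 45 of 48 cells (93.8%, interval 82.8% to 98.7%) and 10 FPKM in 39. Its lowest, median and highest levels were 0.056, 30.7 and 129 FPKM, with quartiles of 18.2 and 55.9 FPKM, and no cell listed it at 0. The 3 cells below 1 FPKM sat at sites 5, 81 and 89, with 0.21, 0.056 and 0.058 FPKM. Efna5 held 59.8% of the summed ephrin-A level and was the highest ephrin-A in 35 of 48 cells. All 48 cells had at least 1 ephrin-A gene at 1 FPKM, and 39 had 2 or more.

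Efna4, the gene of ephrin-A4, was the second ephrin-A by number of cells. It was detected in 33 cells (68.8%, interval 53.7% to 81.3%), had a median level of 6.67 FPKM and a highest of 63.7 FPKM, and was the top ephrin-A in 7 cells. Efna1, which lies near Efna4 on chromosome 3 and is also known as an endothelial ligand, had a different distribution. It was listed at 0 in 34 cells and detected in 13, of which 11 were above 10 FPKM, and its 2 highest cells had 175 and 76.5 FPKM. Of these 13 cells, 8 also held Efna4, close to the 8.94 that the product of their shares gives. Efna2 reached 19.9 FPKM at most and was in 12 cells. Efna3, between Efna1 and Efna4 on the chromosome, reached 1 FPKM in 2 cells.

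Efna1 was the variable member of the set. Of 6266 genes that averaged 5 FPKM or more and reached 1 FPKM in at least 5 cells, 665 (10.6%) lay more than 2-fold over the trend of squared coefficient of variation on mean level. Guidance genes supplied 9 of those tested, and 1 of them, Efna1, was called, at 3.95 times the trend. A share of 1 in 9 is close to that over all genes, so the count does not set the guidance genes apart. The cell at site 84 held 33.8% of its summed level. Epha4 and Plxnb2 stood below the trend at 0.53 and 0.54 of it, and Efna5 at 0.74. The median of the 9 was 0.79 of the trend, against 1.02 over all genes.

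The ephrin-B ligands were all detected in at least 25% of cells. Efnb2, the gene of ephrin-B2, a ligand with later roles in arteries and somites, was in 25 cells (52.1%, interval 37.2% to 66.7%), at a median level of 1.16 FPKM and up to 60.1 FPKM, at site 7. Efnb1 was in 18 cells at up to 30.6 FPKM, and 3 of these exceeded 10 FPKM. Efnb3 was in 13 cells at up to 21.2 FPKM. In all, 37 cells held at least 1 ephrin-B gene and 11 held none. Efnb2 was the highest ephrin-B in 18 of the 37 cells and Efnb1 in 12.

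Epha4 (chromosome 1, 77367185 to 77515088, minus strand) was the prevalent EphA receptor. It encodes a receptor that binds ephrins of both classes, and it marks segment boundaries in paraxial mesoderm and the hindbrain. It was detected in 33 cells (68.8%, interval 53.7% to 81.3%), in 17 of 25 at sites up to 48 and 16 of 23 at higher sites. Its lowest, median and highest levels were 0, 6.19 and 40.8 FPKM, and 8 cells listed it at 0. Epha4 was the highest EphA in 24 of the 44 cells whose EphA levels summed to 1 FPKM or more and held 55.6% of the summed EphA level. Epha2, also known from the primitive streak and from epithelia, reached 1 FPKM in 13 cells and 10 FPKM in 6, with a highest value of 45.1 FPKM, and led the family in 8 cells.

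The other EphA receptors were rarer. Epha1 and Epha7 were detected in 10 cells each, with maxima of 26.01 FPKM for Epha1 and 25.5 FPKM for Epha7. Epha1 shares 156 exon bases with Zyx, an adhesion protein gene on the other strand, and the use of strand in counting is not given in the sources used here. Epha3 was in 2 cells, and 1 cell at 34.3 FPKM held 94.8% of its sum. Epha10 was in 1 cell, and Epha5, Epha6 and Epha8, receptors known mainly from the nervous system, were below 1 FPKM in every cell. EphA genes were together detected in 43 of 48 cells, and 20 cells held 2 or more.

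Ephb4, the receptor paired with ephrin-B2 in veins, was the prevalent EphB gene. It was detected in 24 cells (50.0%, interval 35.2% to 64.8%), at a median level of 1.14 FPKM and up to 29.1 FPKM, in 15 cells at sites up to 48 and 9 at higher sites. Ephb3 was in 12 cells at up to 35.4 FPKM, Ephb2 in 6, and Ephb1 and Ephb6 in 3 each. The highest Ephb2, Ephb1 and Ephb6 cells held 52.8%, 74.4% and 67.5% of the sums of these genes. At least 1 EphB gene was detected in 32 cells.

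**Figure D2:**
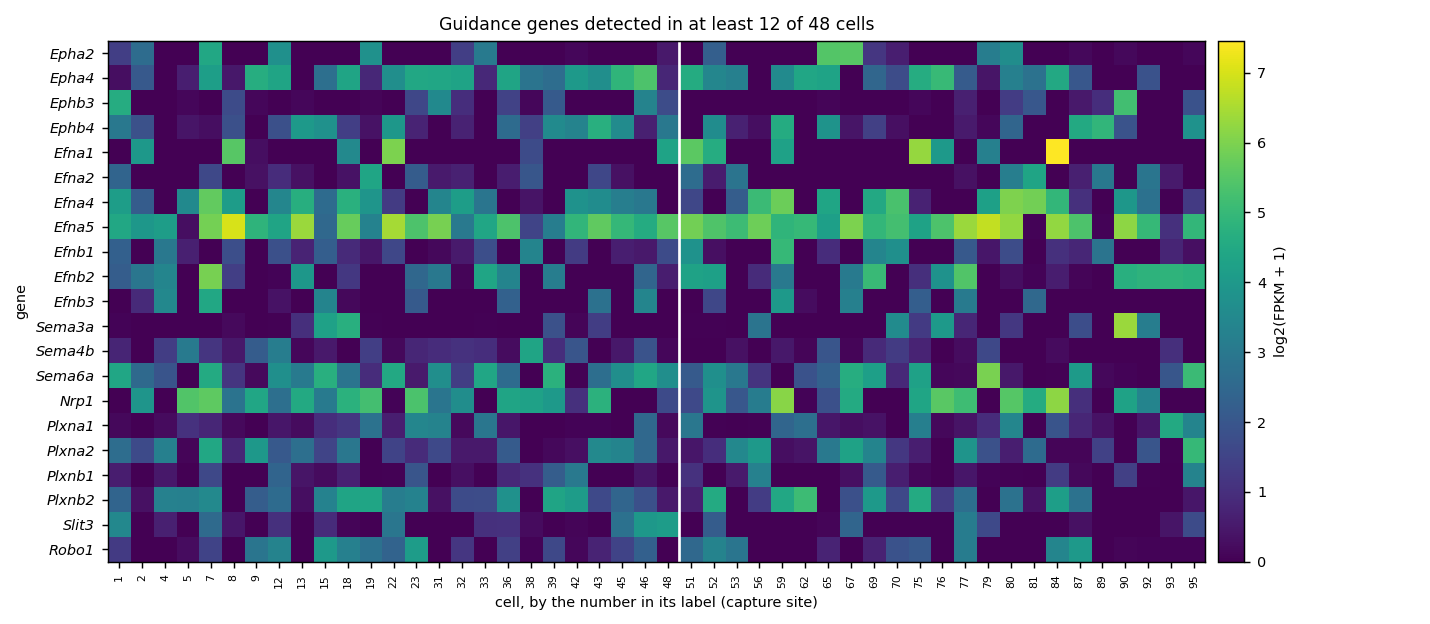
Level as log2(FPKM + 1) (colour) of the 21 guidance genes detected in at least 12 cells (rows, by family) in each of the 48 cells (columns, by capture site, with a white line between sites up to 48 and higher sites). Efna5 runs across nearly all columns, and Efna1 is high in few. Nrp1, Sema6a and Epha4 run from 0 through intermediate levels to 72.4, 61.5 and 40.8 FPKM.

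Semaphorins were mostly sparse, with 3 of 20 in at least 25% of cells. Sema6a (chromosome 18, 47235598 to 47368870, minus strand), a transmembrane semaphorin that binds plexins A2 and A4, was the exception. It was detected in 32 cells (66.7%, interval 51.6% to 79.6%), with a lowest, median and highest level of 0, 4.39 and 61.5 FPKM, and held 88.4% of the summed class 6 level. Sema6d, which acts through plexin A1 in the chick heart, was in 10 cells, 8 at sites up to 48 and 2 at higher sites. Sema6b was in 1 cell and Sema6c in none.

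Sema3a, the secreted ligand of neuropilin 1, was detected in 13 cells. Its highest cells had 80.3 and 25.2 FPKM, and the first of these, at site 90, held 45.7% of its sum. Sema3f was in 8 cells and Sema3e in 5, while Sema3g and Sema3c, the second of which is known from the cardiac outflow tract, were in none. Sema4b was in 13 cells, 10 at sites up to 48 and 3 at higher sites, and its level correlated with the number of detected genes at rho = 0.47, the highest value among the 21 genes. Sema5a was in 11 cells, just under the 25% mark, at which Efna2, Ephb3 and Plxnb1 lay with 12 cells each. Sema4a, Sema4c, Sema4f, Sema3b and Sema7a were in 1 cell each.

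Nrp1 (chromosome 8, 128358604 to 128503363, plus strand) was the most widely detected receptor gene of the set. It was detected in 35 cells (72.9%, interval 58.2% to 84.7%), and its lowest, median and highest levels were 0, 8.58 and 72.4 FPKM, with 11 cells listed at 0. Nrp2, its paralogue with a preference for class 3F semaphorins, was in 8 cells and never above 8.58 FPKM. Nrp1 held 95.8% of the summed neuropilin level. Its exons share 80 bases with Mir1903, a microRNA gene with a row of its own. Exon bases are also shared by Ephb4 with Zan (33), Efna4 with 4731419I09Rik (168), Plxna1 with Gm26811 (191) and Plxnb1 with Gm7628 (257), so reads there may belong to either gene; Efna5, Epha4, Sema6a, Robo1 and Slit3 share none.

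Plexins were detected in 46 of 48 cells. Plxnb2, the prevalent class B plexin, was in 32 cells (66.7%, interval 51.6% to 79.6%) at a median level of 3.05 FPKM and up to 33.4 FPKM. Plxna2 was in 27 cells at a median level of 1.86 FPKM and up to 31.2 FPKM, Plxna1 in 15 and Plxnb1 in 12. Plxnb2 was the highest plexin in 20 cells and Plxna2 in 15. Plxnd1, the Sema3e receptor of vessels, was in 6 cells, Plxna3 in 5, Plxnc1 in 3, Plxna4 in 1 and Plxnb3 in none.

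Slit and Robo genes were detected at low levels. Robo1 was in 22 cells (45.8%, interval 31.4% to 60.8%), at a median level of 0.65 FPKM and up to 16.3 FPKM. Slit3, a Slit also known from the heart and the diaphragm, was in 14 cells at up to 16.5 FPKM, Slit2 in 10 at up to 16.1 FPKM and Slit1 in 5. Robo3 was in 6 cells, Robo2 in 3, and Robo4, an endothelial Robo, was listed at 0 in all 48 cells.

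Ligand and receptor families were then counted in the same cells, beside the number of shared cells that the product of the family shares gives. Since every cell had an ephrin-A gene, all 43 cells with an EphA gene had one too, and the product is 43 as well. Ephrin-B and EphB genes were together in 27 cells against 24.7 from the product, with ephrin-B alone in 10, EphB alone in 5 and neither in 6. A semaphorin and a plexin were together in 43 cells against 43.1. A semaphorin and a neuropilin were together in 35 cells against 34.7. Slit and Robo genes were together in 14 cells against 12.5, with Slit alone in 9, Robo alone in 12 and neither in 13.

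By single genes, 82 known binding or co-receptor pairs were counted. Both genes were detected in the same cell in at least 25% of cells for 8 pairs, in 1 or more cells for 50 and in none for 32. Among the 8, the product of shares lay under 12 cells only for Sema3a with Nrp1 (9.48). Pairs with a gene in no cell, such as those of Epha5, Epha6 and Epha8, could not be together in any. Efna5 and Epha4 were together in 32 cells (66.7%), where the product of their shares gives 30.9, and Efna4 and Epha4 in 23, where it gives 22.7. Every one of the 13 Epha2 cells also held Efna5, where the product gives 12.2. Efnb2 and Epha4 were together in 16 cells (17.2 from the product). Efnb2 and its receptor Ephb4 were together in 12 cells, with Efnb2 alone in 13, Ephb4 alone in 12 and neither in 11, against 12.5 from the product. Other ephrin and Eph pairs lay on both sides of the product. Above it, Efnb2 and Ephb3 were together in 9 cells against 6.25, and Efna4 and Epha2 in 11 against 8.94. Efnb3 and Epha4 were together in 11 against 8.94, and Efna4 and Epha7 in 9 against 6.88. Below it, Efna5 and Epha7 were together in 8 cells against 9.38, Efna1 and Epha7 in 1 against 2.71, and Efnb1 and Ephb3 in 4 against 4.50. Sites that held more than 1 cell were not looked for, and their part in co-detection was not tested.

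Semaphorin, neuropilin and Slit pairs lay on both sides of the product. Sema6a and its receptor gene Plxna2 were together in 21 cells, against 18 from the product, and their levels had rho = 0.37 over 48 cells. Of the 13 Sema3a cells 12 held Nrp1, against 9.48 from the product. Slit3 and Robo1 were together in 9 cells, against 6.42, and Slit2 and Robo1 in 4, against 4.58. Nrp1 and its signalling partner Plxna2 were together in 17 cells, against 19.7. The pairs Sema3f with Nrp2 and Sema3e with Plxnd1 were together in 0 cells, where the products give 1.33 and 0.63. The labels name no separate cultures, so the cells counted as 1 sample and no test was made.

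**Figure D3:**
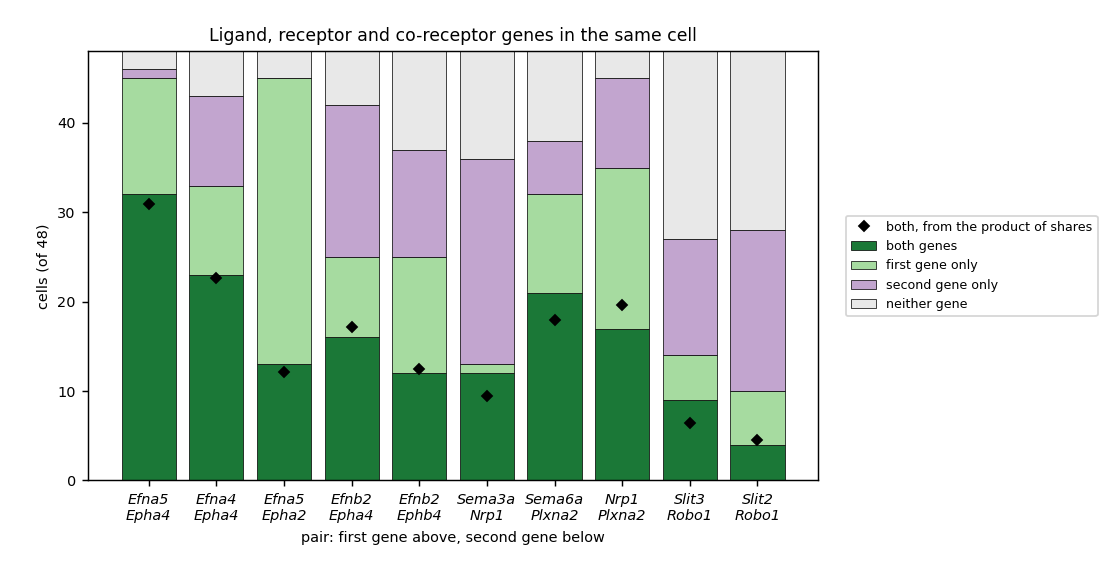
Number of the 48 cells (y axis) with both genes, the first, the second or neither at 1 FPKM or more, for 10 ligand, receptor and co-receptor pairs (x axis), with a diamond at the number that the product of the shares gives. Efna5 with Epha4 reaches 32 cells, close to its diamond at 30.9, while Sema6a with Plxna2 (21) and Sema3a with Nrp1 (12) stand above theirs.

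Relations between levels were then described over the 48 cells of log2(FPKM + 1). A relation was counted at an absolute Spearman correlation of at least 0.4 that kept its sign, at 0.25 or more, in both parts of the device. Of 210 pairs of the 21 genes, 4 met this rule (1.90%), against 0.533% of all 34832031 pairs of genes in at least 12 cells. The median absolute rho of the 210 pairs was 0.12, and 195 were under 0.3. These 2 values were not taken over all gene pairs, so they do not set the guidance genes apart. The cells stand in 1 group and differ in the number of detected genes, which may bear on both genes of a pair. For this reason rho with ranks regressed on that number is given beside each relation.

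Slit3 and Sema6a had the highest correlation, rho = 0.54 (r = 0.51, and 0.50 without the 2 cells farthest from the median of Sema6a). It was 0.52 in each part of the device and 0.51 given the number of detected genes. Of the 14 Slit3 cells 13 also held Sema6a, where the product of shares gives 9.33. Nrp1 and Sema6a were opposed, with rho = -0.42 (r = -0.43, which was -0.36 without the 2 cells farthest from the median of Sema6a and -0.42 without those farthest from that of Nrp1), -0.36 at sites up to 48 and -0.54 at higher sites, and -0.44 given the number of detected genes. They shared 21 cells, against 23.3 from the product of shares. Nrp1 was alone in 14 cells and Sema6a in 11, and 2 cells held neither. Both of these relations met the rule in all 6 other settings tried.

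Robo1 and Epha4 had rho = 0.45 (r = 0.44, and 0.41 without the 2 cells farthest from the median of Epha4), with 0.56 at sites up to 48 and 0.27 at higher sites. Of the 22 Robo1 cells 20 also held Epha4, against 15.1 from the product. Plxnb2 and Efnb3 had rho = 0.42 but r = 0.31, and 12 of the 13 Efnb3 cells held Plxnb2. Given the number of detected genes, these were 0.42 and 0.39 and no longer met the rule in both parts, and neither did without the 7 cells with fewer than 5189 detected genes, where rho was 0.41 and 0.39.

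Guidance genes were also set beside 15 mesodermal, epithelial and pluripotency markers. Of 315 pairs of a guidance gene with a marker, 8 met the rule (2.54%), against 0.981% of all pairs of a gene with a marker. By marker, the share of all genes that met the rule was 0.515% for Mesp1, 0.707% for T, 0.863% for Eomes, 0.743% for Mixl1, 0.803% for Hand1, 0.983% for Aldh1a2, 0.911% for Etv2 and 0.539% for Isl1. It was 1.33% for Kdr, 1.17% for Pdgfra, 2.28% for Cdh1, 1.27% for Krt18, 0.659% for Vim, 0.935% for Otx2 and 1.01% for Dnmt3b. Nrp1 varied with Kdr, the VEGF receptor of hemangiogenic mesoderm, at rho = 0.51 (r = 0.48, and 0.45 without the 2 cells farthest from the median of Nrp1), with 0.70 at sites up to 48 and 0.38 at higher sites, and 0.51 given the number of detected genes. Of the 22 Kdr cells 21 held Nrp1, against 16.04 from the product, and 14 cells held Nrp1 without Kdr. Nrp1 was opposed to Cdh1, the gene of E-cadherin, at rho = -0.40 (r = -0.40), with -0.31 and -0.56 in the lower and higher sites and -0.44 given the number of detected genes. They shared 10 cells, against 13.1 from the product.

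Slit3 was opposed to Kdr, with rho = -0.40 (r = -0.31) and 3 shared cells against 6.42 from the product. It was -0.48 at sites up to 48, -0.37 at higher sites and -0.48 given the number of detected genes. Epha4 varied with Pdgfra, a receptor of cardiac and paraxial mesoderm, at rho = 0.42 (r = 0.39), with 0.46 and 0.38 in the lower and higher sites and 0.45 given the number of detected genes. Both were together in 25 cells against 21.3. Robo1 varied with Mesp1, the induced gene, at rho = 0.42 (r = 0.39), with 0.28 at sites up to 48 and 0.54 at higher sites, and 0.42 given the number of detected genes. Of the 22 Robo1 cells 18 held Mesp1, against 13.8 from the product. The table gives 1 Mesp1 value per cell and does not separate the inducible copy from the endogenous gene.

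Sema4b had rho = 0.43 with Cdh1 (r = 0.34) and rho = -0.47 with Vim, the mesenchymal intermediate filament gene (r = -0.45). At sites up to 48 and higher sites these were 0.36 and 0.33 for Cdh1, and -0.43 and -0.27 for Vim. Given the number of detected genes, with which Sema4b itself correlated, the values were 0.34 for Cdh1 and -0.48 for Vim. Sema4b was listed at 0 in 14 cells and lay between 0 and 1 FPKM in 21, so its ranks rest largely on values under the detection level. It shared 9 cells with Cdh1, against 4.9 from the product. With Vim, detected in 47 cells, it shared 12 against 12.7, so that opposition lay in levels and not in detection. Ephb3 was opposed to Hand1, a lateral plate factor, at rho = -0.41 (r = -0.32, and -0.41 given the number of detected genes) and shared 3 cells with it against 6.50. With Pearson correlation of log2(FPKM + 1) in place of Spearman, Sema4b with Vim was the 1 of these 8 relations that met the rule, whereas with a pseudocount of 0.1 FPKM 6 of the 8 did, Nrp1 with Kdr (r = 0.54) among them and Slit3 with Kdr and Ephb3 with Hand1 not. Without the 7 cells with fewest detected genes, Sema4b with Cdh1 (rho = 0.50) was the relation that still met the rule; Nrp1 with Kdr was at 0.45, Sema4b with Vim at -0.41, Slit3 with Kdr at -0.40, Nrp1 with Cdh1 at -0.36, Robo1 with Mesp1 at 0.34 and Epha4 with Pdgfra at 0.30. Ephb3 had too few cells there for a value. All 7 cells left out lay at sites over 48, so in this setting the rule was applied to fewer cells in that part only. Efna5, present in nearly every cell, met the rule with no marker, and its highest value was rho = 0.29 with Mesp1.

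**Figure D4:**
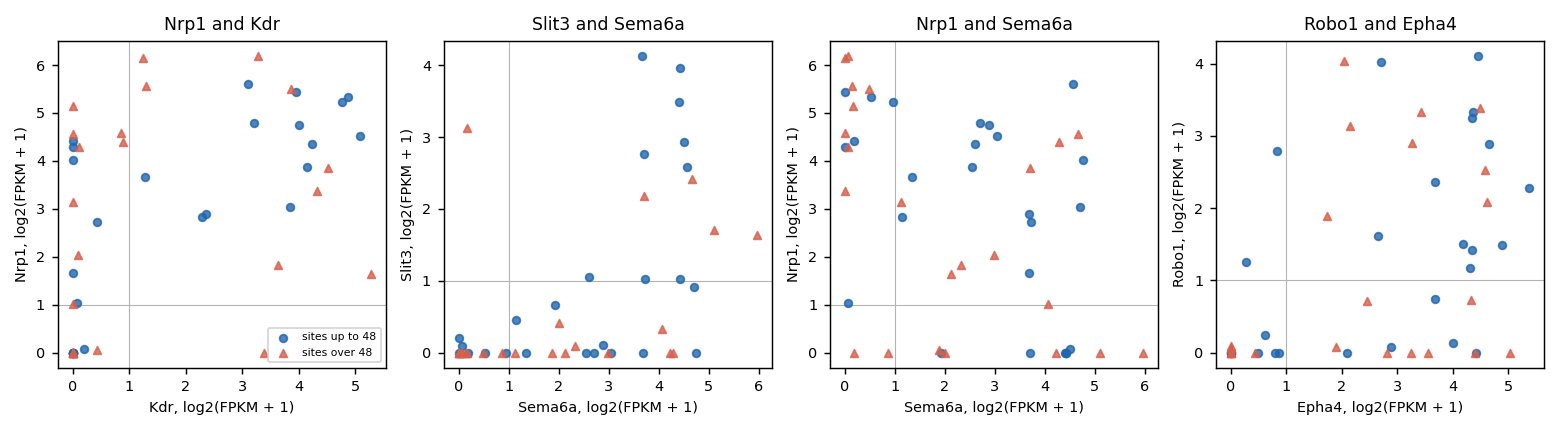
Levels as log2(FPKM + 1) of 4 pairs of genes, 1 point per cell, with circles for sites up to 48 and triangles for higher sites and grey lines at 1 FPKM. Nearly all cells with Kdr lie above the line for Nrp1, cells with Slit3 lie to the right for Sema6a, cells highest in Nrp1 include many with no Sema6a, and cells with Robo1 lie to the right for Epha4.

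Other guidance systems and the cytoplasmic partners of these receptors were counted from a list of 69 genes, of which 41 (59.4%) were detected in at least 25% of cells, against 35.8% of all gene symbols. Of 15 other cues and their receptors, 5 were, a share just under the 35.8% of all gene symbols. These were Neo1, the receptor neogenin, in 22 cells, the netrin receptor Unc5b in 19, Flrt3, a ligand of Unc5 receptors, in 17, Rgmb in 14 and Unc5c in 12. Ntn1, the gene of netrin-1, was in 10 cells, and its attractive receptor Dcc was in none. Of the partners, 36 of 54 were in at least 25% of cells, so the higher share of the whole list came from them. The GTPase genes Rhoa and Cdc42 were in all 48 cells, with medians of 96.2 and 215 FPKM, as were Dpysl2, the semaphorin effector CRMP2 (median 360 FPKM), the phosphatase gene Acp1 (67.7 FPKM) and Gpc1, a glypican that binds Slits (21.6 FPKM). Sdcbp, the gene of syntenin, which binds the tails of ephrin-B ligands, was in 47 cells. Adam10, the protease that cleaves ephrin-A ligands, was in 45 cells with a median of 9.83 FPKM.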

How the data were processed

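Single-cell RNA was measured in 48 cells of 1 group. The authors deposited 1 table with a column per cell, whose names match the cells' titles. Its header names no unit. The deposited values are not whole and were treated as FPKM because Cufflinks 2.2.1.0 stands in the submitters' processing notes, beside CASAVA 1.8.2, TopHat 0.7 and build mm10. The sources used here do not give the annotation, strand use or read filters. FPKM keeps no read count, so depth per cell is unknown. In 2017 genes with a single annotated transcript over 1500 bases, the lowest 5% of non-zero values lay under a bound of 0.22 to 0.41 FPKM times kilobases, depending on the cell.

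Rows of the 240 symbols on several rows were summed, giving 23284 symbols; each guidance gene had 1 row. No cell was removed and no doublet caller was run, since the table holds no counts. Variability was the residual of log10 squared coefficient of variation from a local regression on log10 mean (span 0.4, statsmodels 0.14.6), called above 0.3. Levels were correlated as log2(FPKM + 1), so the pseudocount was 1 FPKM (scipy 1.17.1), and the correlations are descriptions over cells of 1 sample. Coordinates are from GENCODE M21 on GRCm38, the build of mm10. All 60 genes were found there, and 53 had a RefSeq upstream stretch. The members, gene lists, pairs and rules were chosen with earlier results of these data known. Named were the genes detected in at least 12 cells, the genes in none, the relations and pairs that met their rules and the leading pathway genes; rarer genes and pairs in fewer cells were named after their values were seen. Of the steps across genes, the rule for relations between genes and the variability call were first checked on simulated data. There each gene was shuffled over cells on its own, apart from planted relations, and levels for the variability call were drawn from gamma distributions. Those data held no shared dependence on capture site or number of detected genes, so they cannot show how the rule behaves under it. Alternatives were the detection level, rescaling of each cell to the median total without 783 short RNA symbols, leaving out 7 cells with few genes, the mean and cell filters, the correlation measure and regression on the number of detected genes.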

Additional observations from a re-analysis of the deposited data

How the results depend on the processing

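The number of guidance genes in at least 25% of cells was 21; it was 31 at 0.1 FPKM, 8 at 10 FPKM, 21 after rescaling and 17 without the 7 cells with few detected genes. The 8 co-detected pairs became 19 at 0.1 FPKM and 1 at 10 FPKM, and stayed 8 in number after rescaling and without the 7 cells. Variable guidance genes were 2 of 28 with a mean filter of 1 FPKM (Efna1 and Sema3a) and 1 in every other setting tried. Relations among guidance genes numbered 2 with ranks regressed on the number of detected genes and 7 of 666 pairs with genes in at least 5 cells. Relations with markers numbered 4 by Pearson correlation of log2(FPKM + 1), of which 1 was among the 8, against 9 with a pseudocount of 0.1 FPKM, of which 6 were; they numbered 16 of 555 pairs with genes in at least 5 cells, and 3 of 255 pairs without the 7 cells, of which 1 was among the 8; the cause was not tested. Leaving out those cells, all 7 at sites over 48, was chosen after seeing the data for these relations. All 71 values of the 12 relations under other settings kept their sign, and 47 of them met the rule. Nrp1 with Sema6a stayed between -0.45 and -0.41 and Slit3 with Sema6a between 0.48 and 0.55. No paired analysis was possible because the labels give 1 group. Depth per cell is unknown, so a gene listed at 0 may have been missed.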
